A study of Homo sapiens with 39 samples.

Results

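The genes described here are 9 apolipoprotein genes (APOA1, APOA4, APOC3, APOA5, APOB, APOE, APOC1, APOM and APOH) and MTTP. They were taken by gene name, 10 of the 45435 gene rows in the deposited tables. Apolipoproteins are the protein coat of lipoprotein particles: they hold the lipid in solution, activate or inhibit the enzymes that work on it, and serve as ligands for the receptors that take the particle up. The microsomal triglyceride transfer protein, encoded by MTTP, loads lipid onto apolipoprotein B in the endoplasmic reticulum, which is the start of chylomicron assembly in enterocytes and of very-low-density lipoprotein assembly in hepatocytes. Hepatocyte nuclear factor 4 alpha (HNF4A) is a nuclear receptor of liver and gut that is known to bind regulatory regions of several of these genes.

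RNA-seq was done on HCT116 cells, a human colorectal cancer line, as 39 libraries, 3 for each of 13 groups. Parental cells were the HCT116 Flp-In host without an HNF4A construct. The other 12 groups were each a line that produces 1 of the 12 HNF4A isoforms as a fusion to GFP, so every isoform is represented by 1 line. All cells, the parental cells included, received doxycycline at 2.5 µg/ml for 48 h, and selection antibiotics were withdrawn at that point. Until induction, blasticidin S was in all media, with zeocin for the parental cells and hygromycin B for the lines. No group made GFP alone, so effects of the isoform, of GFP, of deriving a line and of the earlier antibiotic cannot be told apart. In standard nomenclature isoforms 1 to 6 come from promoter P1 and 7 to 12 from promoter P2, and isoforms 4 to 6 carry exon 1B. Isoforms 2, 5, 8 and 11 have a short insertion in the C-terminal region, and isoforms 3, 6, 9 and 12 a shortened C-terminus. The labels do not say whether the 3 libraries of a group came from separate cultures, so p-values measure the spread between these samples, which may be technical.

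Levels were deposited as TPM, a unit scaled by transcript length and by the library total, so levels of different genes can be set side by side. Each library had 27884 to 30550 genes above 0. HNF4A itself had line means of 614 to 1071 TPM, against a parental mean of 31.5 TPM ± 0.589 (SD, n = 3). The first library of isoform 3 stood apart from its line, with 407 TPM of HNF4A against 833 and 772. All 6 markers of colorectal epithelium, among them EPCAM and KRT8, had a mean of at least 1 TPM in every group. None of 10 hepatocyte markers did, and their summed level was at most 1.91 TPM in any library. ALB was between 0.229 and 0.659 TPM, and FGA was listed at 0 in all 39 libraries. Summed markers of enterocytes (8 genes) were 1.56 to 1.7 TPM in the parental cells, 57.6 to 68.1 for isoform 1, 44 to 49.7 for isoform 2, and 1.61 to 25.1 in the other lines. Most of that sum in isoform 1 was VIL1, at up to 45.6 TPM in a library, while SI was at most 0.0184. In bulk RNA, more cells that express a gene and more RNA per cell cannot be told apart.

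Tests were made with limma on log2(TPM + 1). A gene passed at a Benjamini-Hochberg adjusted p under 0.05 over all genes tested in that comparison, and was called where the absolute log2 difference was also at least 1. Of the 10 genes, 5 averaged 1 TPM or more across the 39 libraries and entered the test of 15003 genes: APOE at 481 TPM, APOC1 at 32.1, APOM at 1.58, MTTP at 1.23 and APOA1 at 1.06. APOA1 reached that mean only through isoforms 1 and 2. The other 5 were tested in a fit over all 39252 rows above 0: APOC3 (0.399 TPM), APOA4 (0.265), APOA5 (0.0487), APOH (0.00578) and APOB (0.000771). Among the 60 pairs of a tested gene and a line, 2 were called higher and 0 lower. Over all genes tested, 0.94% of pairs were called higher and 0.574% lower. At an adjusted p under 0.05 with no minimum difference, 13 of the 60 pairs were higher and 8 lower, against 12.8% and 17.9% over all genes. Among the 60 pairs of the genes with lower means, 3 were called higher, against 0.39% over all rows, and 5 passed higher against 4.85%. That 0 were called lower (0.226% over all rows) was fixed in advance. A fall of 1 on log2(TPM + 1) needs a parental level of at least 1 TPM. The parental means of these genes were at most 0.0956 TPM (APOC3). The same holds for APOA1 among the tested genes, with a parental mean of 0.274 TPM.

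**Figure D1:**
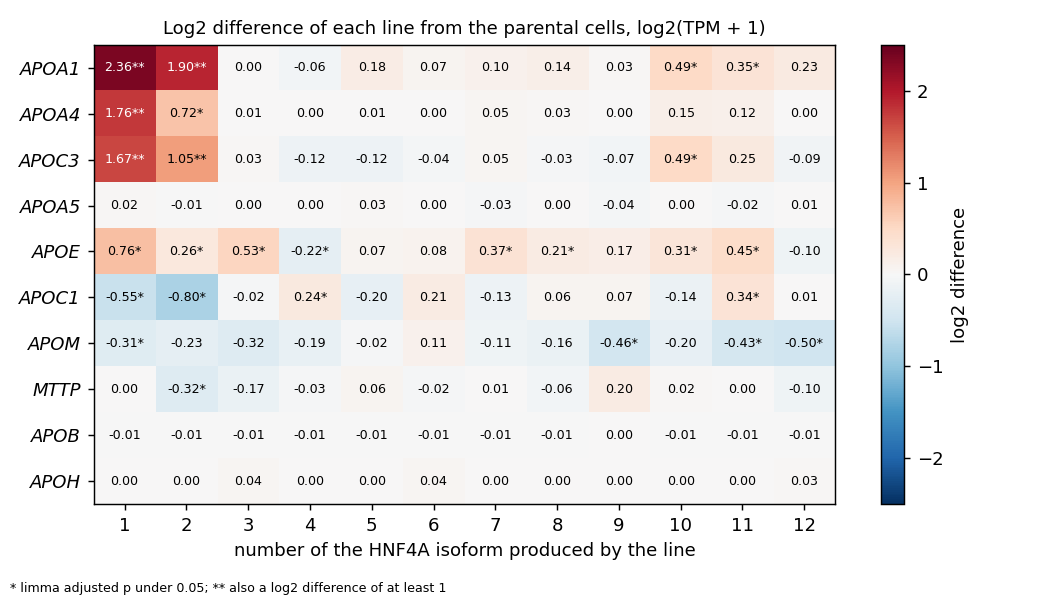
Log2 difference from the parental cells on the log2(TPM + 1) scale, for the 10 genes (vertical) in the 12 lines (horizontal), with 1 asterisk for a limma adjusted p under 0.05 and a double asterisk where the difference was also at least 1. The called differences lie in isoforms 1 and 2, from 1.05 for APOC3 in isoform 2 to 2.36 for APOA1 in isoform 1, and APOA5, APOB and APOH stay between -0.04 and 0.04.

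APOA1, APOC3, APOA4 and APOA5 lie within 48.6 kb of chromosome 11. In GRCh38 with GENCODE 29 annotation, APOA5 is at chr11:116789367-116792420 on the minus strand and APOA4 at chr11:116820700-116823306 on the minus strand. APOC3 is at chr11:116829706-116833072 on the plus strand and APOA1 at chr11:116835751-116837950 on the minus strand. The 250 bases before the APOA4 start are shown because APOA4 rose together with APOA1 and APOC3. They are from RefSeq, build GRCh38.p14, chr11:116823305-116823554, minus strand, 5′ to 3′, and the capitals mark AAAGTCCA, an 8-letter run of the HNF4 motif CAAAGTCCA.
APOA4 upstream: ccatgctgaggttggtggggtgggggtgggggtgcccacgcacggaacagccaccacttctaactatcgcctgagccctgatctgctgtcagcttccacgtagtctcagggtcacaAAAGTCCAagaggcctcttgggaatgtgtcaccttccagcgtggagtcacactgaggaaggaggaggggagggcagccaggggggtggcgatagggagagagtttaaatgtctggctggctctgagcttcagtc
The run starts 134 bases before the start. AAAGTCCA was searched after the sequence had been seen, and 1.14% of the 35116 RefSeq promoter windows of 300 bases hold it on either strand. The 9-letter motif CAAAGTCCA was in 0 of 11 windows matched to 7 of the 10 genes, and 0.384% of all windows hold it, on either strand. No window was available for APOA1, APOC3 and APOB, so APOA1 and APOC3, which rose with APOA4, were not searched. Some windows precede a RefSeq start far inside the GENCODE gene, by 27110 bases for APOH and 11063 for 1 window of MTTP. A match of letters is a description and not a binding site.

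APOA1, APOA4 and APOC3 rose in the lines of isoforms 1 and 2, and were called in none of the other 10 lines. APOA1 encodes the main protein of high-density lipoprotein and the activator of the enzyme that esterifies its cholesterol. It was at 0.397, 0.115 and 0.309 TPM in the parental libraries, 6.75, 4.75 and 5.14 in isoform 1, and 3.46, 3.98 and 3.79 in isoform 2. Every library of these lines was above 3 TPM and none of any other group was above 1.13. The mean was 5.54 TPM ± 1.06 (SD, n = 3) in isoform 1, 20.3 times the parental 0.274 ± 0.144, and 3.74 ± 0.259 (SD, n = 3) in isoform 2, 13.7 times. On the log2(TPM + 1) scale, which understates the change of low genes, the differences were 2.36 ± 0.123 (SE, limma adjusted p = 3.69e-16) and 1.90 ± 0.123 (7.05e-14). In isoform 1, 2.74% of genes tested were called higher, and in isoform 2, 2.36%.

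The lines of isoforms 10 to 12 came next in the order of APOA1 levels. The isoform 10 libraries held 0.731, 0.524 and 1.13 TPM, those of isoform 11 0.492, 0.512 and 0.874, and those of isoform 12 0.398, 0.562 and 0.505. All 9 libraries were above all 3 parental ones. The difference passed in isoform 10 (0.49 ± 0.123 SE, limma adjusted p = 0.00221) and isoform 11 (0.35 ± 0.123, adjusted p = 0.0241), and not in isoform 12 (0.23, adjusted p = 0.228). With only the parental cells and the line compared, neither passed (limma adjusted p = 0.0509 for isoform 10 and 0.0993 for isoform 11). The isoform 11 difference was lost without parental replicate 2 (0.26, limma adjusted p = 0.149) and without isoform 11 replicate 3 (0.24, adjusted p = 0.176). In the authors' deposited table APOA1 passed in isoform 10 (log2 fold change 0.48, SE 0.189, adjusted p = 0.035) and not in isoform 11 (0.40, adjusted p = 0.127). The ratio of mean TPM to the parental cells was 2.9 in isoform 10. The authors' fold changes, here and below, are not on the log2(TPM + 1) scale, so a likeness in size is not agreement. The lines of isoforms 3 to 9 had means between 0.221 and 0.435 TPM and overlapped the parental cells. Of the 12 neighbouring pairs in the order of the 13 groups, 10 overlapped. Isoforms 1 and 2 did not overlap each other, and isoform 2 did not overlap isoform 10. In the isoform 3 line APOA1 was at 0.119, 0.406 and 0.309 TPM, and the library low in HNF4A was its lowest.

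**Figure D2:**
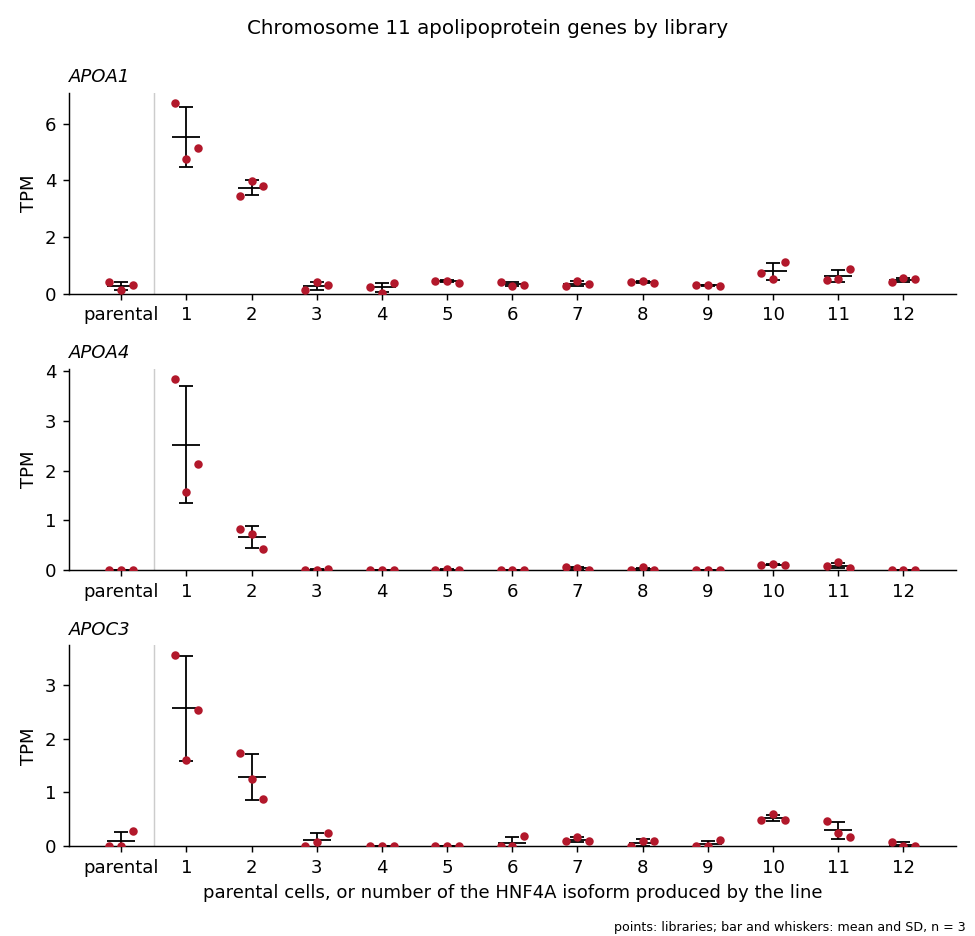
TPM of APOA1, APOA4 and APOC3 (1 panel each) in the 39 libraries, by group: points are libraries, and the bar and whiskers the mean and SD of 3. In all 3 panels isoform 1 is highest, with isoform 2 next and isoform 10 behind it, and the means of APOA1 in these are 5.54, 3.74 and 0.794 TPM.

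APOC3, which encodes an inhibitor of lipoprotein lipase and of particle uptake, had its 4 highest means in the same order as APOA1, in isoforms 1, 2, 10 and 11, and another order below these. The parental libraries held 0, 0 and 0.287 TPM, those of isoform 1 3.55, 1.61 and 2.53, and those of isoform 2 1.73, 1.24 and 0.879. All 6 libraries of these lines were above every library of the other 11 groups. The means were 2.56 TPM ± 0.973 (SD, n = 3) and 1.28 ± 0.426. The differences were 1.67 ± 0.136 (SE, limma adjusted p = 4.43e-11) and 1.05 ± 0.136 (adjusted p = 4.1e-07) in the fit over all rows above 0. The isoform 2 difference passed the test in every leave-one-out fit but fell under the minimum of 1 without parental replicate 1 or 2 (0.99) and without isoform 2 replicate 1 (0.92). In isoform 10 the libraries held 0.49, 0.595 and 0.491 TPM, all above the parental ones. That difference passed (0.49 ± 0.136 SE, limma adjusted p = 0.0122) but not without parental replicate 1 (adjusted p = 0.0648), parental replicate 2 (0.065) or isoform 10 replicate 2 (0.0512). In isoforms 4 and 5 APOC3 was listed at 0 in all 6 libraries.

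APOA4, the intestinal apolipoprotein of chylomicrons and of lymph, was listed at 0 in all 3 parental libraries and in all libraries of isoforms 4, 6, 9 and 12. It was at 3.85, 1.58 and 2.14 TPM in isoform 1 and at 0.829, 0.734 and 0.419 in isoform 2. The isoform 10 libraries held 0.101, 0.115 and 0.104 TPM, those of isoform 11 0.0738, 0.152 and 0.0436, and no library of another line was above 0.0538. These 4 lines had APOA4 in every library, and 22 of the 39 libraries were at 0. The authors' mean normalised counts for APOA4 were 2.58 in the isoform 10 comparison and 2.14 in that of isoform 11, so these values rest on few reads. The difference was 1.76 ± 0.113 (SE, limma adjusted p = 3.3e-13) in isoform 1 and 0.72 ± 0.113 (adjusted p = 9.16e-06) in isoform 2. No fold is given against a group at 0. In isoform 10 (0.15, limma adjusted p = 0.492) and isoform 11 (0.12, adjusted p = 0.581) the difference did not pass.

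With a pseudocount of 0.1 TPM, which compresses low values less, the differences of isoform 1 were 3.99 for APOA1, 4.62 for APOA4 and 4.02 for APOC3, and those of isoform 2 were 3.44, 2.88 and 3.09. On that scale APOA4 in isoform 2 was called (limma adjusted p = 4.28e-11), as were APOA1 in isoform 10 (1.29, adjusted p = 0.00478) and isoform 11 (1.00, adjusted p = 0.0252) and APOC3 in isoform 10 (1.99, adjusted p = 0.00367). So was APOA4 in isoform 10 (1.05, limma adjusted p = 0.00164), where the parental libraries are all at 0. For isoform 10 the authors' deposited table had a mean of 2.58 normalised counts for APOA4 and 3.83 for APOC3. It gave no adjusted p for either, so these 2 calls rest on few reads. For APOA1 the authors' means were 14.7 normalised counts in the isoform 10 comparison and 12 in that of isoform 11. Those APOA1 calls thus also rest on few reads. In the authors' deposited table for isoform 1, APOA1 had a mean of 83 normalised counts over the libraries compared and a log2 fold change of 3.60 (SE 0.28, adjusted p = 1.77e-36). The same authors' deposited table gave 63.2 counts and 4.24 for APOA4 (SE 0.335), and 16.8 counts and 2.24 for APOC3 (SE 0.359), so the APOC3 values rest on few reads.

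APOA5, in the same cluster, encodes a plasma activator of triglyceride breakdown and is known as a liver gene. It was between 0 and 0.092 TPM in the 39 libraries, with group means from 0.0189 in isoform 9 to 0.0699 in isoform 5. All 12 lines overlapped the parental cells (0.0512 TPM ± 0.0173, SD, n = 3), and none passed (smallest limma adjusted p 0.522). In isoform 1, where APOA1, APOA4 and APOC3 were highest, APOA5 was at 0.0681 TPM ± 0.0223 (SD, n = 3). Of the 6 nearest protein-coding genes, 3 on each side of the cluster, 5 were tested and none was called in any line. Over all genes tested, only 0.94% of pairs of gene and line were called higher and 0.574% lower. The log2 differences of these neighbours ran from -0.29 for BUD13 and SIK3 to 0.79 for SIDT2. The antisense gene APOA1-AS overlaps APOA1, and its group means were between 0.0653 and 0.289 TPM. The parental mean was 0.289 TPM ± 0.189 (SD, n = 3) and that of isoform 1 0.0877 ± 0.0866 (SD, n = 3), so its level did not rise with APOA1. The library kit keeps strand, per the labels. How the quantifier used strand is not given in the sources used here.

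APOE and APOC1 are adjacent on chromosome 19, APOE at chr19:44905754-44909393 and APOC1 at chr19:44914247-44919349, both on the plus strand with 4853 bases between them. They were the most abundant of the 10 genes, and their levels moved in opposite directions in isoforms 1 and 2. APOE encodes the ligand by which remnant particles bind receptors for uptake, and APOC1 a small protein that interferes with that binding. APOE was at 408, 409 and 397 TPM in the parental libraries, 735, 671 and 659 in isoform 1, and 519, 653 and 592 in isoform 3. All libraries of isoform 1 were above every library of the other groups, and those of isoform 3 were above the parental range. Without the isoform 3 library low in HNF4A, which was also its lowest in APOE, the isoform 3 difference was 0.62 (limma adjusted p = 4.42e-08). The isoform 1 mean was 688 TPM ± 40.4 (SD, n = 3) against 405 ± 6.65, a log2 difference of 0.76 ± 0.0687 (SE, limma adjusted p = 7.5e-11).

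APOE passed higher in 7 lines and lower in 1, and was called in none. It was at least 328 TPM in every one of the 39 libraries. The isoform 3 difference was 0.53 (limma adjusted p = 8.02e-07) and that of isoform 11 0.45 (4.35e-06). They were smaller for isoforms 7 (0.37, limma adjusted p = 6.34e-05), 10 (0.31, 0.000723), 2 (0.26, 0.0019) and 8 (0.21, 0.0177). The line of isoform 11 held 539, 572 and 551 TPM. In isoform 4 APOE was lower, at 366, 351 and 328 TPM, by -0.22 ± 0.0687 (SE, limma adjusted p = 0.0292). Isoforms 5 (0.07), 6 (0.08), 9 (0.17) and 12 (-0.10) did not pass, although all libraries of isoform 9 were above and all of isoform 12 below the parental ones. The isoform 4 difference was lost with scaling by medians of ratios (-0.15, limma adjusted p = 0.138). It was also lost without any 1 of the parental libraries (adjusted p = 0.055 to 0.0835) and without isoform 4 replicate b or c (0.06 and 0.135). Letters are given here to libraries without a number. The isoform 8 difference was lost without parental replicate 3 (0.20, adjusted p = 0.0578) and without isoform 8 replicate 1 or 3 (0.17 and 0.19). In the authors' deposited tables APOE passed in isoforms 4 (adjusted p = 0.00663), 8 (8.66e-08) and 9 (0.00307). It did not pass there in isoforms 5 (0.317), 6 (0.121) and 12 (0.223). In the order of the 13 groups, 9 of 12 neighbouring pairs overlapped. Isoform 1 stood clear at the top, and the parental cells, isoform 12 and isoform 4 stood apart from each other at the bottom.

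**Figure D3:**
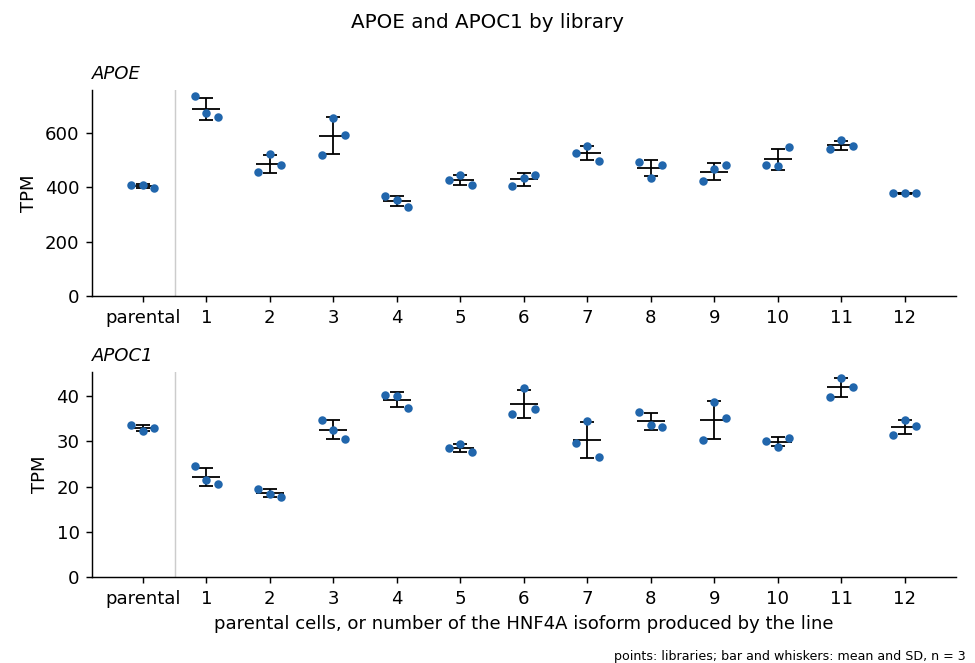
TPM of APOE (upper panel) and APOC1 (lower panel) in the 39 libraries, by group: points are libraries, and the bar and whiskers the mean and SD of 3. Isoform 1 is highest for APOE at a mean of 688 TPM and is below the parental cells for APOC1 at 22.2, while isoform 4 is lowest for APOE at 349.

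APOC1 was at 33.6, 32.4 and 32.9 TPM in the parental libraries, 24.5, 21.4 and 20.7 in isoform 1, and 19.4, 18.4 and 17.7 in isoform 2. These 6 libraries were the lowest of the 39. The log2 difference was -0.55 ± 0.0777 (SE, limma adjusted p = 4.12e-07) in isoform 1 and -0.80 ± 0.0777 (adjusted p = 4.84e-10) in isoform 2. In these comparisons 38.7% and 35.6% of all genes tested passed lower. The median difference of all genes was -0.11 and -0.09 there, and 0.02 with scaling by medians of ratios, under which APOC1 was at -0.42 and -0.68 and still passed. APOC1 rose in isoform 11 (39.7, 44.1 and 42 TPM; 0.34 ± 0.0777 SE, limma adjusted p = 0.000853). It also passed in isoform 4 (40.2, 40.1 and 37.3 TPM; 0.24, adjusted p = 0.0297). The isoform 4 difference was lost without any 1 of the parental libraries (adjusted p = 0.0524 to 0.0891) and without isoform 4 replicate a or b (0.0907 and 0.094).

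The adjacent genes moved separately. In isoform 11 both were higher than in the parental cells, in isoforms 1 and 2 APOE was higher and APOC1 lower, and in isoform 4 APOE was lower and APOC1 higher. Both isoform 4 differences are weak. They were lost without any 1 of the parental libraries and with no filter (limma adjusted p = 0.0655 for APOE and 0.0637 for APOC1). In the authors' deposited tables the directions were the same, with log2 fold changes for APOE and APOC1 of 0.91 and -0.41 in isoform 1 and 0.39 and -0.68 in isoform 2. For isoform 4 the authors' deposited table had -0.16 and 0.27, and for isoform 11 it had 0.54 and 0.42. The pseudogene APOC1P1, downstream of APOC1, can share reads with it, and its group means were 0.56 to 1.27 TPM. None of the 3 tested neighbours of the pair was called in any line, where 0.94% of all pairs of gene and line were called higher and 0.574% lower.

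APOM encodes a lipocalin of high-density lipoprotein that carries sphingosine-1-phosphate, and lies at chr6:31652416-31658210 on the plus strand. It was low in all groups and passed lower in 4 of the 12 lines. The parental libraries held 2.48, 1.4 and 2.11 TPM, those of isoform 12 1.08, 1.02 and 1.18, and those of isoform 11 1.35, 0.955 and 1.29. All libraries of isoforms 11 and 12 were under the parental ones, and the other 10 lines overlapped them. The difference was -0.50 ± 0.132 (SE, limma adjusted p = 0.00911) in isoform 12. It was -0.46 (0.0108) for isoform 9, -0.43 (0.00962) for isoform 11 and -0.31 (0.043) for isoform 1. All of these were lost without parental replicate 1, the highest of its group, with adjusted p-values of 0.0838, 0.0957, 0.0832 and 0.25. With only the parental cells and the line compared they were also lost (limma adjusted p = 0.0661 to 0.139), and the isoform 1 difference was lost with scaling by medians of ratios (0.151). In the authors' deposited tables APOM passed in no line (smallest adjusted p 0.185). The highest mean was 2.21 TPM in isoform 6, and all 12 neighbouring pairs in the order of the groups overlapped.

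The 250 bases before the APOM start are shown because this was the only one of the 11 windows with the direct repeat searched as a looser HNF4 motif: G, any 2 bases, CAAAG, any 2 bases, then CA. They are from RefSeq, build GRCh38.p14, chr6:31655644-31655893, plus strand, 5′ to 3′, with the match in capitals. The RefSeq start that follows them lies 3478 bases inside the GENCODE gene given above, so the window is not the one before the GENCODE start.
APOM upstream: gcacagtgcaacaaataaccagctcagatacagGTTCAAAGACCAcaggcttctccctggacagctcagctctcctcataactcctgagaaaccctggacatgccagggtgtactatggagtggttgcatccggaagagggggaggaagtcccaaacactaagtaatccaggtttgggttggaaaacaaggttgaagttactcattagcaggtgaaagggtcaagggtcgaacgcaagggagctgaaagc
The match starts 217 bases before that RefSeq start, and 1.42% of all 35116 windows hold the repeat on either strand. APOM fell or did not pass in the lines, and the letters say nothing of whether HNF4A was bound there.

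MTTP lies at chr4:99563761-99623999 on the plus strand and was at 1.26, 1.19 and 1.36 TPM in the parental libraries. In isoform 1, where APOA1 was highest, it was at 1.29, 1.42 and 1.11 TPM, a log2 difference of 0.00 with a 95% interval of -0.24 to 0.24. In isoform 2 it was at 0.879, 0.805 and 0.775 TPM, under all libraries of the parental cells and of isoform 1. MTTP fell there by 0.32 on the log2 scale (limma adjusted p = 0.0227), from 1.27 TPM ± 0.0879 to 0.82 ± 0.0533 (SD, n = 3). That difference was lost with scaling by medians of ratios (-0.26, adjusted p = 0.0569) and without parental replicate 3 (-0.29, 0.0729), isoform 2 replicate 2 (-0.31, 0.0523) or isoform 2 replicate 3 (-0.30, 0.0622). The authors' deposited table gave -0.45 with an adjusted p of 0.0422 for MTTP in isoform 2. The libraries of isoform 3 (0.924, 0.961 and 1.17 TPM) were also all under the parental ones, without passing. The remaining 10 lines overlapped the parental cells. Isoform 9 had the highest mean, 1.64 TPM, with libraries of 1.38, 1.32 and 2.22.

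**Figure D4:**
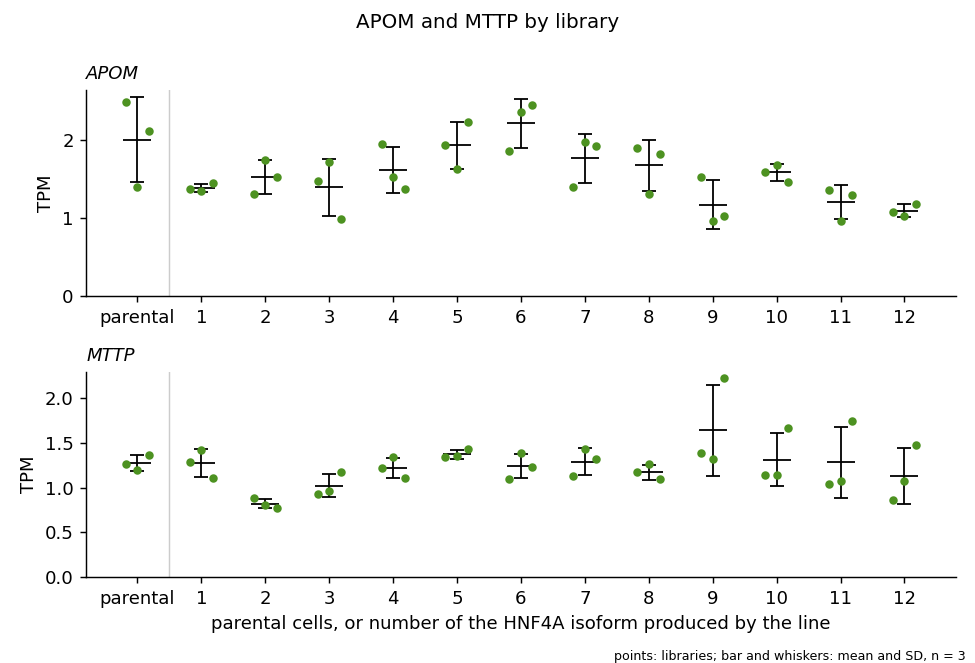
TPM of APOM (upper panel) and MTTP (lower panel) in the 39 libraries, by group: points are libraries, and the bar and whiskers the mean and SD of 3. Both genes stay under 2.5 TPM in every library, the APOM means of isoforms 9, 11 and 12 lie between 1.09 and 1.2, and the 3 MTTP libraries of isoform 2 lie together at a mean of 0.82.

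APOB, the structural protein of chylomicrons and very-low-density lipoprotein and the partner of MTTP, was at or near 0 in all groups. It was above 0 in 5 of 39 libraries, of which 2 were parental (0.00578 and 0.00882 TPM), and the highest value was 0.0102 TPM in a library of isoform 9. In isoforms 1 and 2 it was listed at 0 in all 6 libraries. APOH, a plasma protein that binds phospholipid, was above 0 in 4 libraries, at most 0.0828 TPM, and was listed at 0 in the parental cells and in isoforms 1 and 2. Neither passed in any line (smallest limma adjusted p 0.331 and 0.338). The depth of the libraries cannot be read from TPM, so no upper limit from counting is given for these values.

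Lines whose proteins differ in 1 part of HNF4A were then compared with each other, in 17 pairs. For the 5 genes in the test of 15003, 5 of the pairwise differences were called lower and 0 higher, all for APOA1. Each subtracts the level of isoform 1 or 2, the lines through which APOA1 reached the tested mean. The count is thus not independent of the rise against the parental cells, and the sign follows from the order of subtraction. Over all genes tested, 0.651% of differences were called lower and 0.421% higher. APOA1 was lower in isoform 3 than in isoform 1, which differ in the C-terminus, by -2.35 ± 0.123 (SE, limma adjusted p = 3.58e-15). It was lower with exon 1B, in isoform 4 against 1 (-2.42) and 5 against 2 (-1.72), and with the P2 N-terminus, in isoform 7 against 1 (-2.26) and 8 against 2 (-1.76). In pairs for the same parts without isoform 1 or 2, APOA1 did not pass. These were isoform 6 against 3 (0.07), 9 against 3 (0.02), 6 against 4 (0.14), 9 against 7 (-0.07) and 12 against 10 (-0.26). At the low levels of these lines a fall could hardly show. The insertion went with a smaller difference: isoform 2 against 1 was -0.45 (adjusted p = 0.00949), which was lost without isoform 1 replicate 1 (-0.33, 0.107) and with a pseudocount of 0.1 (-0.54, adjusted p = 0.339). Without the isoform 3 library low in HNF4A, the difference of isoform 3 from isoform 1 was -2.26 (adjusted p = 1.42e-13).

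For APOC3 the same 5 pairs were called lower in the fit over all rows above 0, and for APOA4 3 of them. In that fit 0.281% of all differences were called lower. The calls for APOC3 and APOA4 again subtract isoform 1 or 2, so they are not independent of the rise in those lines. APOC3 was lower in isoform 3 against 1 (-1.65), 4 against 1 (-1.80), 7 against 1 (-1.63), 5 against 2 (-1.17) and 8 against 2 (-1.08), each with an SE of 0.136. APOA4 was lower in isoform 3 against 1 (-1.75), 4 against 1 (-1.76), 7 against 1 (-1.72) and also in 2 against 1 (-1.04 ± 0.113 SE, limma adjusted p = 3.29e-07). The last lies close to the minimum of 1, with isoform 1 libraries at 3.85, 1.58 and 2.14 TPM, as does APOC3 in 8 against 2. No alternative fit, with a library left out or otherwise, was run for differences of APOC3 and APOA4 between lines. Isoforms 5 and 8 against 2 gave -0.71 and -0.70 for APOA4, which passed without a call. On the log2(TPM + 1) scale the same genes differed less within the P2 lines. Their low levels there limit how large such a difference can be. Mean APOC3 was 0.525 TPM in isoform 10 and 0.026 in isoform 12, against 2.56 in isoform 1 and 0.113 in isoform 3. APOC3 was lower in isoform 12 than in 10 by -0.57 (adjusted p = 0.00703) and higher in 10 than in 7 by 0.44 (adjusted p = 0.0359), and APOA1 was higher in 10 than in 7 by 0.39 (adjusted p = 0.0191). The APOA1 difference was lost without isoform 10 replicate 3 (0.26, limma adjusted p = 0.165), without isoform 7 replicate 1 (0.34, 0.0805) and with a pseudocount of 0.1 (0.92, 0.0546).

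APOE passed in 13 of the 17 pairs and APOC1 in 10, and none of these was called. Differences passed higher in 15.5% and lower in 9.71% of all genes and pairs. The largest for APOE was isoform 4 against 1 (-0.98 ± 0.0687 SE, limma adjusted p = 3.27e-13). That difference lay close to the minimum of 1 and was called with scaling by medians of ratios (-1.05, limma adjusted p = 1.16e-13), without isoform 1 replicate 3 (-1.01) and without isoform 4 replicate a (-1.02). It was followed by isoform 2 against 1 (-0.50, 3.9e-06) and 6 against 3 (-0.45, 1.07e-05). The largest for APOC1 were of the other sign, isoform 8 against 2 (0.86 ± 0.0777 SE, limma adjusted p = 3.31e-10) and 4 against 1 (0.80, 4.4e-10). The insertion went with lower APOC1 in isoform 5 against 4 (-0.45, adjusted p = 0.00017) and with higher APOC1 in 11 against 10 (0.48, 5.68e-05). MTTP passed in 2 pairs, higher in isoform 5 than in 2 (0.38, limma adjusted p = 0.00692) and in 9 than in 3 (0.37, adjusted p = 0.0236), and the latter was lost without isoform 9 replicate 3 (0.22, adjusted p = 0.231) and without isoform 3 replicate 1 or 2 (0.0704 and 0.0811). APOM passed in 1 pair, higher in isoform 6 than in 3 (0.43, adjusted p = 0.0167), which was lost without isoform 3 replicate 3 (0.31, adjusted p = 0.138) and without isoform 6 replicate 2 or 3 (0.0649 and 0.0723).

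With the 12 lines as units, and N-terminal and C-terminal form as additive terms, APOA1 was lower in isoforms 4 to 6 than in 1 to 3 by -1.36 ± 0.407 (SE, limma adjusted p = 0.03). It was 1 call among 5 genes in a comparison where 1.37% of genes tested were called lower. It did not pass with all rows above 0 in the fit (adjusted p = 0.102). The isoform 3 line belongs to the class 1 to 3 but was at the parental level, so the level of that class rests on the lines of isoforms 1 and 2. Between isoforms 7 to 9 and 1 to 3 the APOA1 difference was -1.33 ± 0.407 (SE, limma adjusted p = 0.0622). APOE was lower in isoforms 4 to 6 than in 1 to 3 by -0.54 ± 0.157 (SE, limma adjusted p = 0.0269), where 12.6% of all genes passed lower, and did not pass with all rows above 0 in the fit (0.0931). APOC1 was higher by 0.54 ± 0.187 without passing (adjusted p = 0.0506). For the insertion and for the short C-terminus none of the 5 genes passed in limma, nor was any under an unadjusted p of 0.05, with APOA1 at -0.08 (95% interval -0.87 to 0.72) and -0.60 (-1.29 to 0.09). Hardly any gene passed in these: 0% of all genes tested were lower for the insertion and 0.0133% for the short C-terminus. Additive terms hold C-terminal differences equal across the N-terminal classes.

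Other genes of lipoprotein metabolism were read from 7 lists, 105 genes in all. Of these, 64 were tested, 9 were called higher in at least 1 line and 4 lower, PLA2G7 among both, and 52 were called in no line. Calls were 47 higher and 5 lower among 768 pairs of gene and line, 6.12% and 0.651%, against the 0.94% and 0.574% over all genes tested. By list, pairs called higher were 37.5% for editing of apolipoprotein B (2 genes tested), 15.6% for lipid supply, 8.93% for assembly and secretion, 3.24% for regulators, 1.19% for remodelling and efflux, and 0% for receptors and for other apolipoproteins. None of the 64 was called in the lines of isoforms 4, 5 and 6. The lists were chosen by role but with earlier results of these data known, and no test of a list as a whole was made. The genes called in most lines were APOBEC1, PRAP1, ACSL5 and CREB3L3, with parental means of 0.0403, 0.648, 0.55 and 0.21 TPM. They reached the tested mean of 1 TPM through the lines where they were higher. The share over all genes is therefore no independent measure for these lists.

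The apolipoprotein B editing enzyme APOBEC1, which turns a glutamine codon of APOB mRNA into a stop codon, was called higher in 9 lines, all except isoforms 4, 5 and 6. It rose from 0.0403 TPM in the parental cells to 46 in isoform 1 and 29.7 in isoform 2, a log2 difference of 5.50 ± 0.187 (SE, limma adjusted p = 1.83e-20) in isoform 1. Its substrate APOB was listed at 0 in both lines, and the editing cofactor A1CF was at 0.164 TPM in the parental cells and 0.174 in isoform 1. RBM47, another cofactor, was not called, with differences from -0.14 to 0.31.

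Of 15 genes of assembly and secretion, 14 were tested and 3 called, all higher. PRAP1, which encodes a secreted protein of gut epithelium that binds MTTP, was called in 9 lines and rose from 0.648 TPM to 37.1 in isoform 1 (4.53 ± 0.139 SE, limma adjusted p = 1.58e-21). CIDEB, a lipid droplet protein of lipoprotein lipidation, was called in 4 lines and rose from 2.28 TPM to 58.5 in isoform 1 and 44.7 in isoform 2. In isoform 3 it was also called (2.93 ± 0.178 SE, limma adjusted p = 1.64e-13), where APOA1 was at the parental level. MIA2, part of the receptor for large cargo at endoplasmic reticulum exit sites, was called in isoforms 1 (1.44) and 2 (1.10). The other 11 tested, which include the MTTP subunit P4HB (623 TPM in the parental cells) and the COPII coat genes SAR1B and SEC24D, were not called. The median difference of the list was 0.25 in isoform 1 and 0.26 in isoform 2, against -0.11 and -0.09 for all genes tested.

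**Figure D5:**
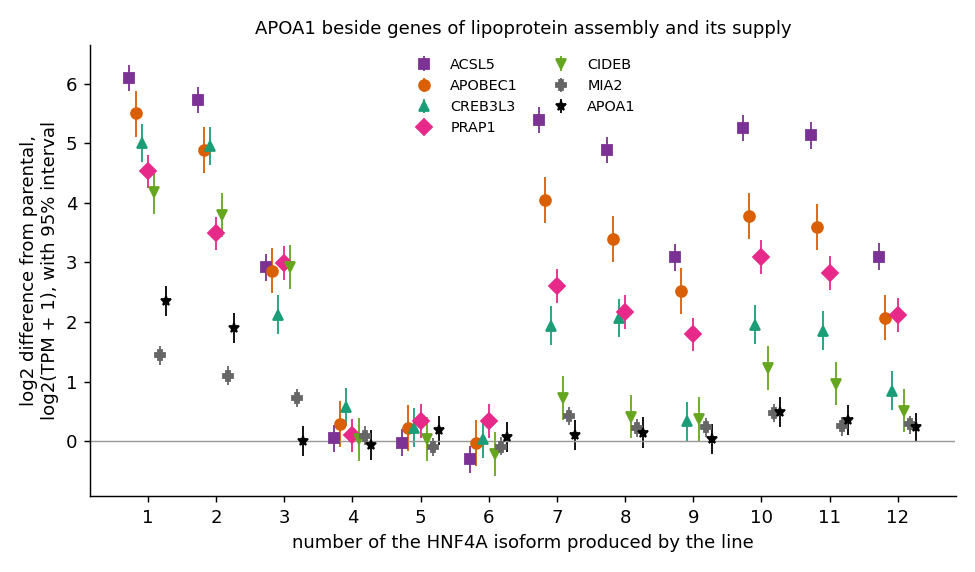
Log2 difference from the parental cells, log2(TPM + 1), of APOA1 and 6 other genes in the 12 lines (horizontal), with 95% intervals from limma. ACSL5, APOBEC1 and PRAP1 are called in 9 lines and lie near 0 in isoforms 4 to 6, whereas APOA1 is called in isoforms 1 and 2 and is at 0.00 in isoform 3.

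Among 15 genes that supply triglyceride and cholesteryl ester, 8 were tested and 3 called, all higher. ACSL5, an acyl-CoA synthetase of enterocytes, was called in 9 lines and rose from 0.55 TPM to 105 in isoform 1 (6.09 ± 0.11 SE, limma adjusted p = 3.95e-27). GPAT3 and AGPAT2, which add the first and the second acyl chain of the glycerolipid pathway, were each called in 3 lines, with largest differences of 1.28 and 1.88. DGAT1, DGAT2 and SOAT1, which form triglyceride and cholesteryl ester, were not called, and FABP1 was listed at 0 in all groups. Of 22 regulators besides HNF4A, 18 were tested. CREB3L3, a membrane-bound transcription factor known to act on APOA4 and APOC2, was called higher in 7 lines and rose from 0.21 TPM to 37.9 in isoform 1 and 36.8 in isoform 2 (5.00 and 4.96, each with an SE of 0.158). In isoforms 3, 7, 8, 10 and 11 CREB3L3 was called at 1.85 to 2.12, while APOA1 was at 0.00 to 0.49 there. FOXA1 was called lower in isoform 1 (-1.09 ± 0.112 SE) and the nuclear receptor NR2F1 in isoforms 2 (-1.01) and 10 (-1.06). With scaling by medians of ratios FOXA1 was called in 0 lines and NR2F1 in 1. Without isoform 1 replicate 1 FOXA1 was called in 0 lines, and without parental replicate 3 NR2F1 was.

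None of 11 tested receptor genes was called. SORL1 and SORT1, sorting receptors that bind apolipoproteins, fell in isoform 1 by 0.95 and 0.78 on the log2 scale without a call (limma adjusted p = 1.1e-08 and 1.38e-12). In the list of remodelling and sterol efflux 7 of 18 genes were tested, and PLA2G7, which encodes a phospholipase carried on lipoproteins, was called lower in isoform 2 (-1.27) and higher in isoform 7 (1.02); without parental replicate 1 it was called in 1 line. Of 16 other apolipoprotein genes 4 were tested. CLU, which encodes clusterin, was called lower in isoform 1 (-1.05 ± 0.0718 SE, limma adjusted p = 1.73e-13), from 86.9 to 41.4 TPM, and was not called with scaling by medians of ratios. The fall was not particular to that line. CLU also passed lower, without a call, in isoforms 7 (-0.67), 2 (-0.62), 9 (-0.53), 12 (-0.48), 3 and 4 (both -0.44). So it did in isoforms 5 (-0.39), 11 (-0.37) and 10 (-0.26), but not in isoforms 6 and 8. APOA2 was at 0.0802 TPM in the parental cells and 0.508 in isoform 1, under the level tested.

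By the Pearson correlation of the 13 group means of log2(TPM + 1), the tested genes most like APOA1 were SEC13 (0.978), C2CD2L (0.968) and PIK3C2B (0.961). Those most like APOE were SRP14-AS1 (0.950), STXBP2 (0.917) and RITA1 (0.905). Among those most like APOC1 were APC2 (0.926) and LEO1 (0.921). APOM had no gene above 0.802 (AADACP1, then AADAC at 0.790 and LOC107986641 at 0.778), and MTTP was most like LOC101929147 (0.901), RNMT (0.898) and PDCD4 (0.891). These are the highest of 15003 correlations over 13 points that share the same libraries, and are given as a description. Near the 6 loci, 20 of 36 neighbouring protein-coding genes were tested, and 1 was called: AXIN2, beside APOH, was lower in 1 line (-1.01). Over all genes tested, 0.94% of pairs of gene and line were called higher and 0.574% lower. With so low a share, the count says nothing particular of these loci.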

How the data were processed

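RNA-seq of HCT116 cells was analysed in 39 libraries, 13 groups of 3. The authors deposited 1 table per group with a TPM value for each gene and library. Per the submitters' processing notes, the tools were Trimmomatic 0.36, FastQC 0.11.5, kallisto 0.44.0 and DESeq2 1.22.2 and the build GRCh38.p12. Which annotation was used is not given in the sources used here. Each line's table adds the authors' deposited comparison with the parental cells. Per the file headers it holds a mean of normalised counts (a signal), the log2 fold change and its SE, the test score, and raw and adjusted p-values. These entered no fit, and the log2 fold changes are not on the log2(TPM + 1) scale. TPM does not give the depth of a library. The authors' mean normalised counts summed to 50609338 to 56136330 over a table, and nothing else in the tables bears on depth, so intervals for counting error are not given.

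The tables had 45446 rows in 1 order. In those of isoforms 4 and 5, 29 names differed from the parental table, none of them a gene described here. The 12 HNF4A rows were summed, which left 45435. The columns of isoforms 4 and 5 carry a group but no replicate number.

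TPM was taken to log2(TPM + 1) and fitted with limma 3.58.1 under R 4.3.3, with moderated variances that follow the mean-variance trend, in 1 fit of 13 group coefficients with 26 residual degrees of freedom, on the 15003 genes that averaged 1 TPM or more. Genes under that mean were read from the same fit over the 39252 rows above 0. Adjusted p-values are Benjamini-Hochberg values over all genes of a comparison, and a call also needs an absolute log2 difference of at least 1. All 12 comparisons share the 3 parental libraries. The script was tested on simulated data with known changes. Within each group every library had a correlation of at least 0.9952 with another, and no pair shared more than 0.0044% of identical values, so all 39 were counted. The genes and the lists were chosen with earlier results of these data known. Named genes were the 10 genes, HNF4A, in each list the genes called in most lines (up to 3) and those called in 1 line, the 3 genes most like each tested gene, and called neighbours. Other genes are named as examples of what was not called, and some named by the rule are not reported here. Alternatives were another pseudocount, scaling, filter, trend and block, single-line fits and each library left out.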

Additional observations from a re-analysis of the deposited data

Results flagged for a closer look

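In 14 cases lines that differ in 1 part of HNF4A differed in a gene by at least 1 on the log2(TPM + 1) scale with a limma adjusted p under 0.05 for the difference itself, so the effect against the parental cells differed between them. For APOA1 these were isoform 3 against 1 (-2.35), 4 against 1 (-2.42), 7 against 1 (-2.26), 5 against 2 (-1.72) and 8 against 2 (-1.76). For APOA4 they were isoform 2 against 1 (-1.04), 3 against 1 (-1.75), 4 against 1 (-1.76) and 7 against 1 (-1.72). For APOC3 they were isoform 3 against 1 (-1.65), 4 against 1 (-1.80), 7 against 1 (-1.63), 5 against 2 (-1.17) and 8 against 2 (-1.08). No alternative fit was run for the APOA4 and APOC3 cases, and those at -1.04 and -1.08 lie close to the minimum of 1. HNF4A mRNA was at 782 TPM in the isoform 1 line and at 614, 671, 856, 852, 733 and 734 TPM in those of isoforms 2, 3, 4, 5, 7 and 8, and its part in these differences was not tested. Each isoform is 1 line, and a difference between lines and a difference between isoforms cannot be told apart.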

How the results depend on the processing

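No difference named changed sign under any alternative run. With a pseudocount of 0.1, calls against the parental cells were 4 higher for the tested genes (2 with a pseudocount of 1), 6 for the genes of lower mean (3), and 10 lower for the lists (5). With no minimum difference they were 13 higher and 8 lower for the tested genes and 5 higher for those of lower mean; between lines they were 15 higher and 18 lower (0 and 5), and between classes 2 lower (1). A filter of 5 TPM, which removes APOA1, left 0 calls higher. Between classes 0 were left with no filter. Scaling by medians of ratios left 2 lower calls for the lists. With each library left out in turn, calls were 2 to 2 higher and 0 to 0 lower for the tested genes, 2 to 3 higher and 0 to 0 lower for those of lower mean, 0 to 0 higher and 5 to 6 lower between lines, 0 to 0 higher and 1 to 2 lower between classes, and 46 to 48 higher and 3 to 5 lower for the lists. The 2 class calls came without isoform 3 replicate 1, and the 3 list calls without parental replicate 3. With the replicate number as a block, which leaves out isoforms 4 and 5, 3 differences between lines were called lower, fewer because those lines are not in the fit. The block ended no call between libraries it holds, but APOM in isoform 1 no longer passed (adjusted p = 0.0511). The labels do not say what a number shares, and same-numbered libraries had correlations with the parental deviations of -0.05 to 0.19 over 30 pairs, not all over 0.1, so the numbers were not taken as pairs. As a hint of pairing in the data, 19 of 30 correlated best with their own number, where 1 in 3 would be 10. Of single differences, 272 against the parental cells kept their side of the threshold and 45 fell short, and between lines 313 and 40. For the genes of lower mean, APOA4 and APOC3 among them, no alternative was run between lines. Values near 0 TPM limit APOA4, APOC3, APOA5, APOB and APOH, and all comparisons share the parental libraries.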

Other observations

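MOGAT3 and MOGAT2, monoacylglycerol acyltransferases of the enterocyte, were under the mean level tested in all lists. MOGAT3 was at 0.163 TPM in the parental cells, 3.39 in isoform 1 and 2.36 in isoform 2, and MOGAT2 at 0.0565, 0.757 and 0.322. SOAT2, the cholesterol acyltransferase of liver and gut, was at 0.0708, 0.94 and 0.628. TM6SF2, a protein of lipoprotein lipidation, was at 0.0372, 0.0219 and 0.0444, and LPL was listed at 0 in isoforms 1 and 2. These values were not tested.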
